A study of Mus musculus with 10 samples.

Results

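Interferon-induced genes were measured by RNA sequencing in outflow veins of mouse arteriovenous fistulas after treatment with antibody or vehicle. The genes were chosen by name: 39 interferon-induced genes were looked up by their name in the deposited table, and 39 of 39 were found among its 43346 genes. An arteriovenous fistula connects an artery with a vein, the surgery by which patients are prepared for haemodialysis, and arterial flow thickens the wall of the vein. The antibody group consisted of 5 veins from mice injected into the peritoneum with antibody to human CX3CR1 at 30 mg/kg, 2 times per week. The vehicle group consisted of 5 veins from mice injected with an equal volume of vehicle on the same schedule. Mice of both groups had human CX3CR1, which binds the chemokine fractalkine, knocked in on a strain given as C57. Mice of both groups also had chronic kidney disease, established 28 days before the carotid artery was joined to the jugular vein, and the outflow vein was collected on day 7 of the fistula. A fractalkine antibody is named instead in the title and design of the series, and which molecule was bound cannot be told from the labels. There was no healthy vein and no mouse without the knock-in, so the levels below are those of the operated, uraemic, humanised animal. Whether libraries came from separate animals is not stated in the labels, so p-values measure the spread between these libraries.

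Interferons are cytokines that put cells into an antiviral and antimicrobial state. Type I interferons signal through the receptor Ifnar1 and Ifnar2 and the kinases Jak1 and Tyk2 to a complex that contains Stat2 and Irf9 and binds the interferon-stimulated response element (ISRE). Interferon gamma, made mainly by T and NK cells, signals through Ifngr1 and Ifngr2 and the kinases Jak1 and Jak2, and its target genes carry the gamma-activated sequence (GAS). Ifit, Oas and Mx genes are classical targets of type I interferon, and guanylate-binding proteins and immunity-related GTPases are strongly induced by interferon gamma, although each interferon can induce genes of the other group. In vessels, endothelium, smooth muscle and macrophages all respond to both.

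The promoters of 29 of the 39 genes could be matched by symbol to RefSeq promoter windows on GRCm38.p6 and were searched for both elements in the 250 bases before the annotated start. The ISRE was searched as TTTCNNTTTC, or as its reverse complement GAAANNGAAA, and the GAS element as TTCNNNGAA, which is its own reverse complement. At least 1 ISRE match lay before 15 of the 29 genes (51.7%), against 3.46% of all 27025 genes in the RefSeq set. At least 1 GAS match lay before 8 of the 29 (27.6%), against 8.13% of all genes. ISRE matches were present in 4 of 7 matched Ifit and Oas genes and in 7 of 7 matched Gbp, Irgm and Igtp genes. GAS matches were present in 2 of 7 and 4 of 7. Neither Mx1 nor Mx2 was matched, so no Mx promoter was searched. Gbp5 counts for both elements by its symbol, but the ID of its row carries the name Gbp2b in GENCODE M21. Its promoter window may therefore not belong to the row that was measured. A match is a run of letters and not a measured binding site. The 6 stretches below each end at the base before an annotated start and are shown because their genes span the patterns described in the results. Isg15, Ifit3 and Rsad2 hold ISRE matches only, Irf1 holds a GAS match only, and Igtp and Gbp7 hold both. Each is written 5′ to 3′ in the direction of its gene, with ISRE and GAS matches in capitals, and overlapping matches form a longer run of capitals. Isg15 lies at chr4:156200819-156200978, strand -, with 3 overlapping ISRE matches. Ifit3 lies at chr19:34583369-34583528, strand +, with 2 ISRE matches. Rsad2 lies at chr12:26456453-26456612, strand -, with 1 ISRE match. Irf1 lies at chr11:53769854-53770013, strand +, with 1 GAS match. Igtp lies at chr11:58199396-58199555, strand +, with 1 GAS match followed by 1 ISRE match. Gbp7 lies at chr3:142530176-142530335, strand +, with 2 GAS matches followed by 1 ISRE match.
Isg15: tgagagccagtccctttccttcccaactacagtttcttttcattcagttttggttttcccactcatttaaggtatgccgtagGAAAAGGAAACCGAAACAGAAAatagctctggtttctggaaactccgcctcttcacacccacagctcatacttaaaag
Ifit3: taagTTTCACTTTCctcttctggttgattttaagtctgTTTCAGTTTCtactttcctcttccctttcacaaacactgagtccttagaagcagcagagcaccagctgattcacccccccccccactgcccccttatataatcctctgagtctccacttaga
Rsad2: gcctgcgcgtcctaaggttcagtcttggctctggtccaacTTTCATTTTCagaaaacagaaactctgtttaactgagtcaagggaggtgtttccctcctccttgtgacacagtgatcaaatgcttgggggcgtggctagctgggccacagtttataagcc
Irf1: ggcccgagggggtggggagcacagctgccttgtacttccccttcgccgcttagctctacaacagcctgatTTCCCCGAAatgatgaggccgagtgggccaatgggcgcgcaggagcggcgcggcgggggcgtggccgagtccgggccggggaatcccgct
Igtp: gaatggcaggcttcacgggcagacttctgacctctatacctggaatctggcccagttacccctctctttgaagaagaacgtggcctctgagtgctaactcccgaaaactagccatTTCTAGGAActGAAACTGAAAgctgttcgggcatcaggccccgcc
Gbp7: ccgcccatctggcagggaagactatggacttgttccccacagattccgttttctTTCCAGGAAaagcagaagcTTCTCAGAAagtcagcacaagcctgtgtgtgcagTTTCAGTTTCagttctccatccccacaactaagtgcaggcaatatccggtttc

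Levels are RPKM (reads divided by gene length and by library size), scaled for library composition, and values within a group are listed in the order of replicates 1 to 5. The libraries held 4282872 reads (antibody replicate 3) to 34271554 reads (vehicle replicate 4). Endothelial markers summed to 146 to 182 RPKM under antibody and 140.2 to 181 RPKM under vehicle, and smooth muscle and fibroblast markers were present in each library. Markers of neighbouring tissue varied widely. Skeletal muscle markers summed to 279 to 3035 RPKM under antibody and 473 to 5443 RPKM under vehicle. Adipocyte markers summed to 68.8 to 467 RPKM and 137 to 199 RPKM, and kidney tubule markers to 2.99 to 58.5 RPKM and 5.15 to 53.8 RPKM. The part of neighbouring tissue in the levels of the 39 genes was not tested. Vehicle replicate 1 stood apart from the other libraries in the number of genes with a read. With each library thinned to the depth of the shallowest, 28376 genes had a read in vehicle replicate 1, against 22538 to 25021 in the other 9, and its median RPKM over all genes of the table was 0.414, against 0.136 to 0.231. Among the 17859 genes that passed the filter on low values it did not stand apart, being the highest library in 9.72% and the lowest in 8.29%. The log2 differences of the 39 genes, in 27 of which it was highest, are given with and without it.

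All 39 genes were expressed in the vein, and all 39 passed the filter on low values. Each gene had at least 18 reads in each library and at most 3797. Bst2, an antiviral membrane protein that tethers budding virus, had the highest mean over the 10 libraries at 31.98 RPKM. Next in order were Ifit3 at 19.96 RPKM, Trim25 at 18.6 RPKM, Gbp2 at 16.8 RPKM, Irf7 at 16.2 RPKM and Isg15 at 15.5 RPKM, whose ranges over libraries overlapped from each to the next. The lowest were Ifi44 at 1.26 RPKM, Oas3 at 2.09 RPKM and Gbp6 at 2.20 RPKM.

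The design asks whether antibody changed these genes relative to vehicle, and none of the 39 passed the test. In the limma fit over all 17859 genes tested, 0 of 39 had a Benjamini-Hochberg adjusted p below 0.05, and the same held for 0% of all genes tested. The adjusted p of the 39 lay between 0.771 (Oas2 and Trim25) and 0.994 (Gbp3). At an unadjusted limma p below 0.05 there were 0 of 39, against 6.53% of all genes tested. The second tool, limma-voom on recovered reads, also called 0 of 39 and 0 genes of the table, with 1061 genes at an unadjusted p below 0.05, against 1166 in the first. The mean log2 level was higher in antibody veins for 20 of the 39 and lower for 19, where 48.8% of all genes tested were higher. Under scaling by library totals only, 26 were higher and 13 lower, where 63.7% of all genes were higher. In 0 of 39 genes did the antibody and vehicle ranges separate, against 1.11% of all genes tested. The median log2 difference, antibody minus vehicle, was 0.05 over the 39 genes and -0.0053 over all genes tested. Over the 39 it was 0.22 without vehicle replicate 1, and it was below 0 without vehicle replicate 2 (-0.14), antibody replicate 4 (-0.06) or vehicle replicate 4 (-0.0002).

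**Figure D1:**
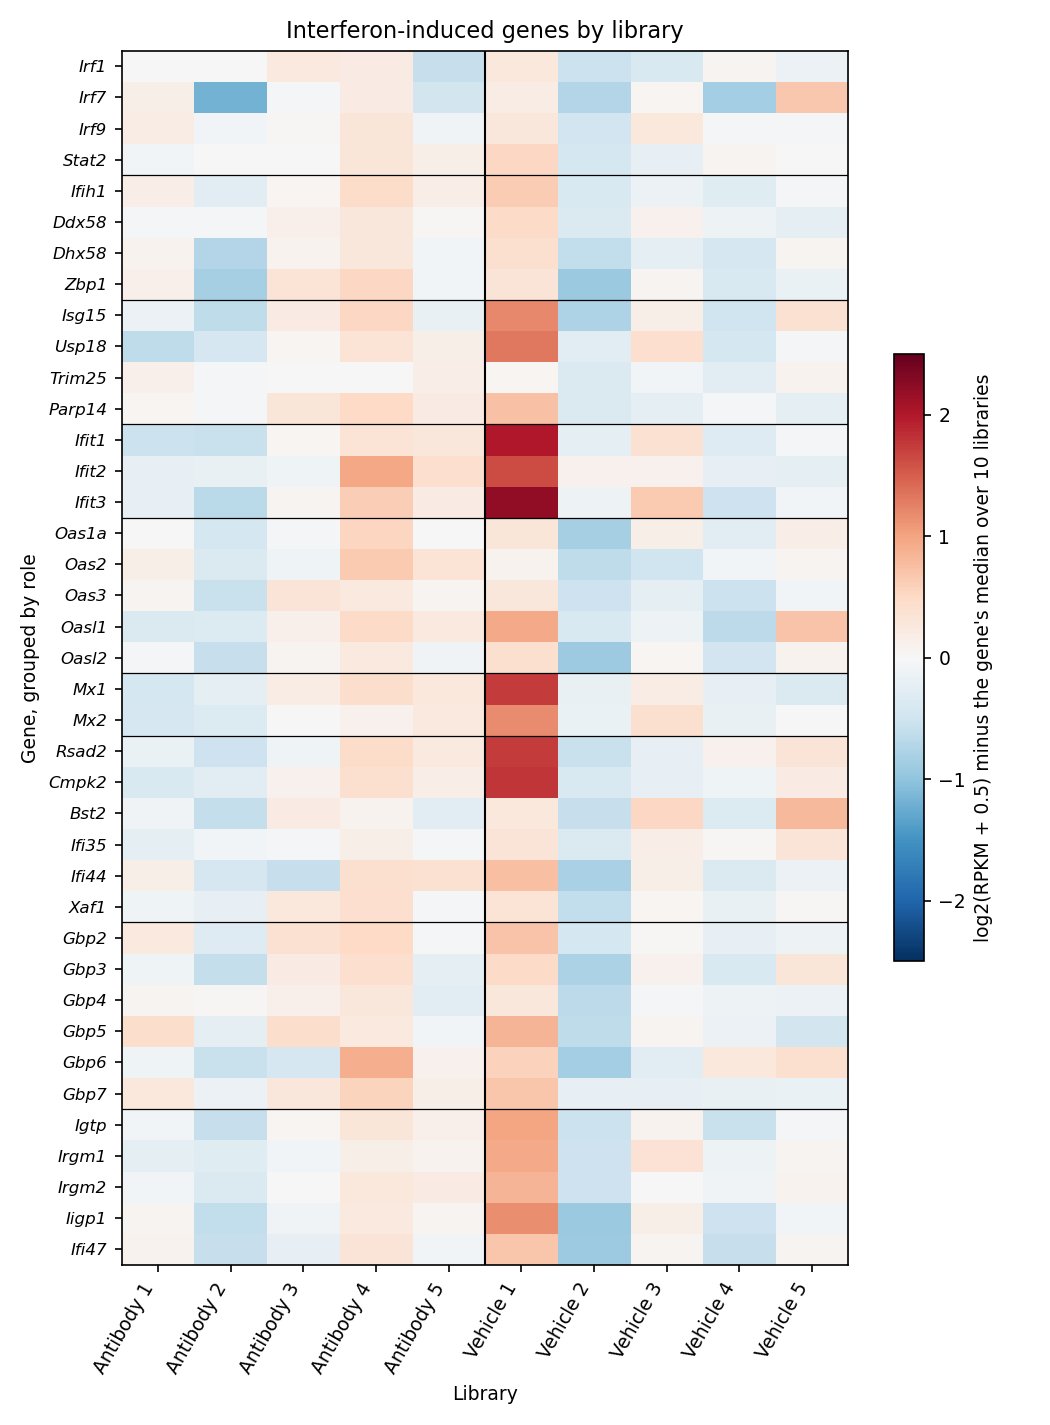
Rows are the 39 genes grouped by role and columns the 10 libraries, antibody left of vehicle, and colour is log2(RPKM + 0.5) minus the gene's median over the 10 libraries. Vehicle replicate 1 is the darkest red column, most of all in the Ifit, Mx1, Rsad2 and Cmpk2 rows, and vehicle replicate 2 is blue in most rows.

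Among single libraries, vehicle replicate 1 had the highest level of the 10 in 27 of 39 genes, where it was highest in 9.72% of all genes tested. Vehicle replicate 2, in the same group, had the lowest level in 25 of 39, where it was lowest in 10.5% of all genes tested. Antibody replicate 4 was highest in 7 genes and antibody replicate 2 lowest in 7. The level in vehicle replicate 1 was at least 2 times the median of the other 4 vehicle libraries in 17 of 39 genes, against 6.96% of all genes tested. The median of that ratio was 1.91 over the 39 genes and 0.995 over all genes tested. By role, the ratio was 3.34 to 5.11 in the Ifit genes, 2.76 to 4.34 in the Mx genes, 1.30 to 2.59 in the Oas genes, 1.91 to 2.78 in the immunity-related GTPases, 1.38 to 2.55 in the Gbp genes and 1.25 to 1.56 in the transcription factors. Other effectors were split, with Cmpk2 at 4.49 and Rsad2 at 3.71 but Bst2 at 1.08 and Ifi35 at 1.18.

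**Figure D2:**
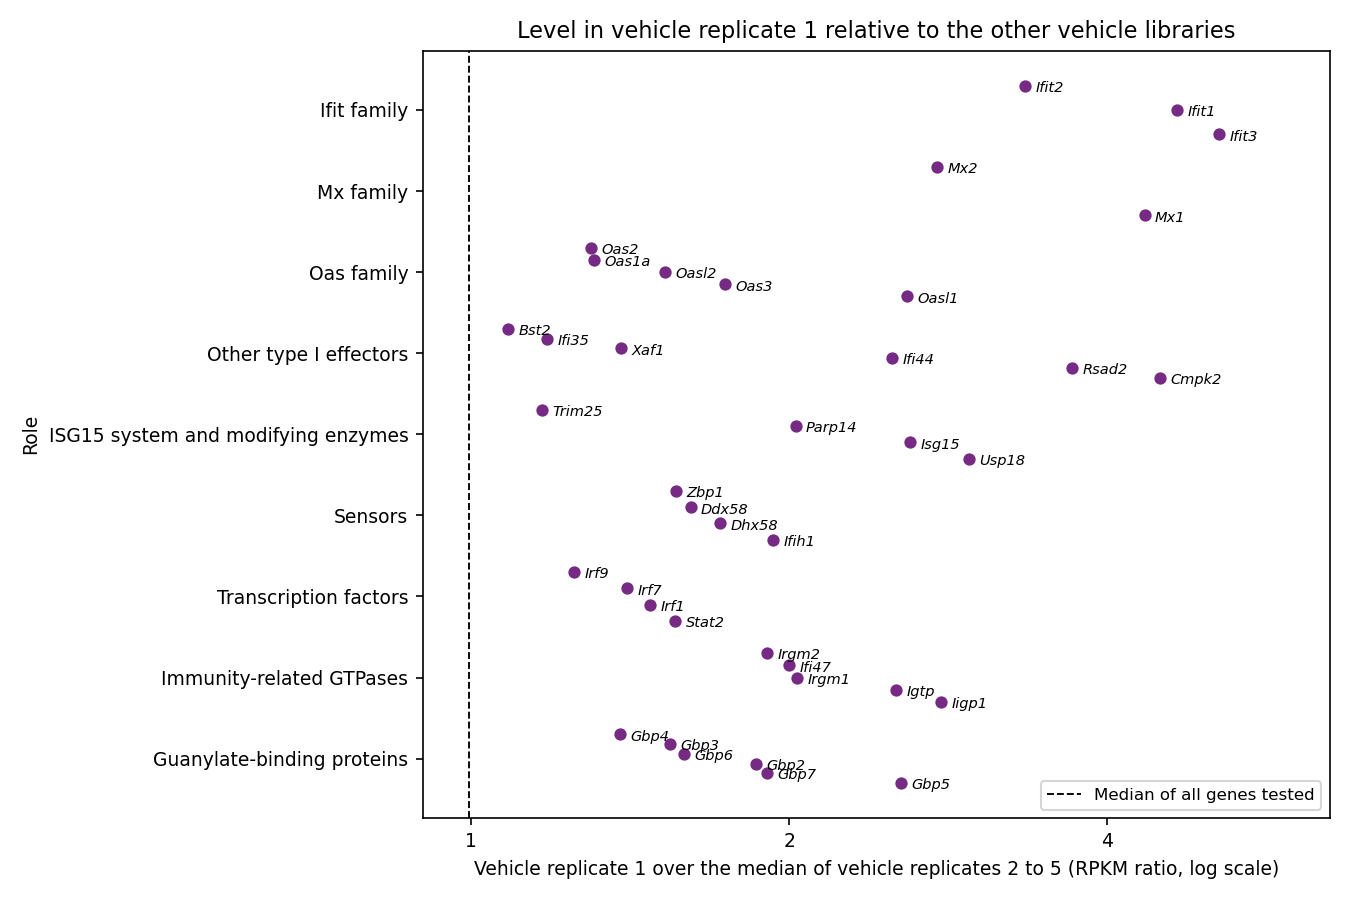
The x axis, on a log scale, gives the level in vehicle replicate 1 divided by the median of vehicle replicates 2 to 5 for each gene, and rows are the roles. Ifit1, Ifit3, Mx1 and Cmpk2 lie beyond 4, the transcription factors between 1.25 and 1.56, and all 39 genes lie right of the median of all genes tested, 0.995 (dashed line).

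Without vehicle replicate 1 the balance of directions differed. Then 32 of the 39 genes had higher means in antibody veins and 7 lower, where 49.2% of all genes tested were higher, and 12 genes had changed sign. Vehicle replicate 1 lay above the median of the other vehicle libraries in all 39 genes (1.08 to 5.11 times). Leaving it out therefore moved the differences upward by construction. Neither this balance nor the counts below without that library are separate evidence of a difference between the groups. The median log2 difference was 0.22 over the 39 genes and -0.0041 over all genes tested. At an unadjusted limma p below 0.05 there were 3 of 39 (Parp14, Gbp7 and Gbp5), a share close to the 6.89% of all genes tested. At a limma adjusted p below 0.05 there were 0 of 39 and 0% of all genes tested, with a smallest value of 0.684. The ranges separated in 2 of 39 (Parp14 and Gbp7), against 2.16% of all genes tested. Other single libraries moved the balance too: 13 genes were higher and 26 lower without vehicle replicate 2, 28 higher and 11 lower without antibody replicate 2, and 17 higher and 22 lower without antibody replicate 4.

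**Figure D3:**
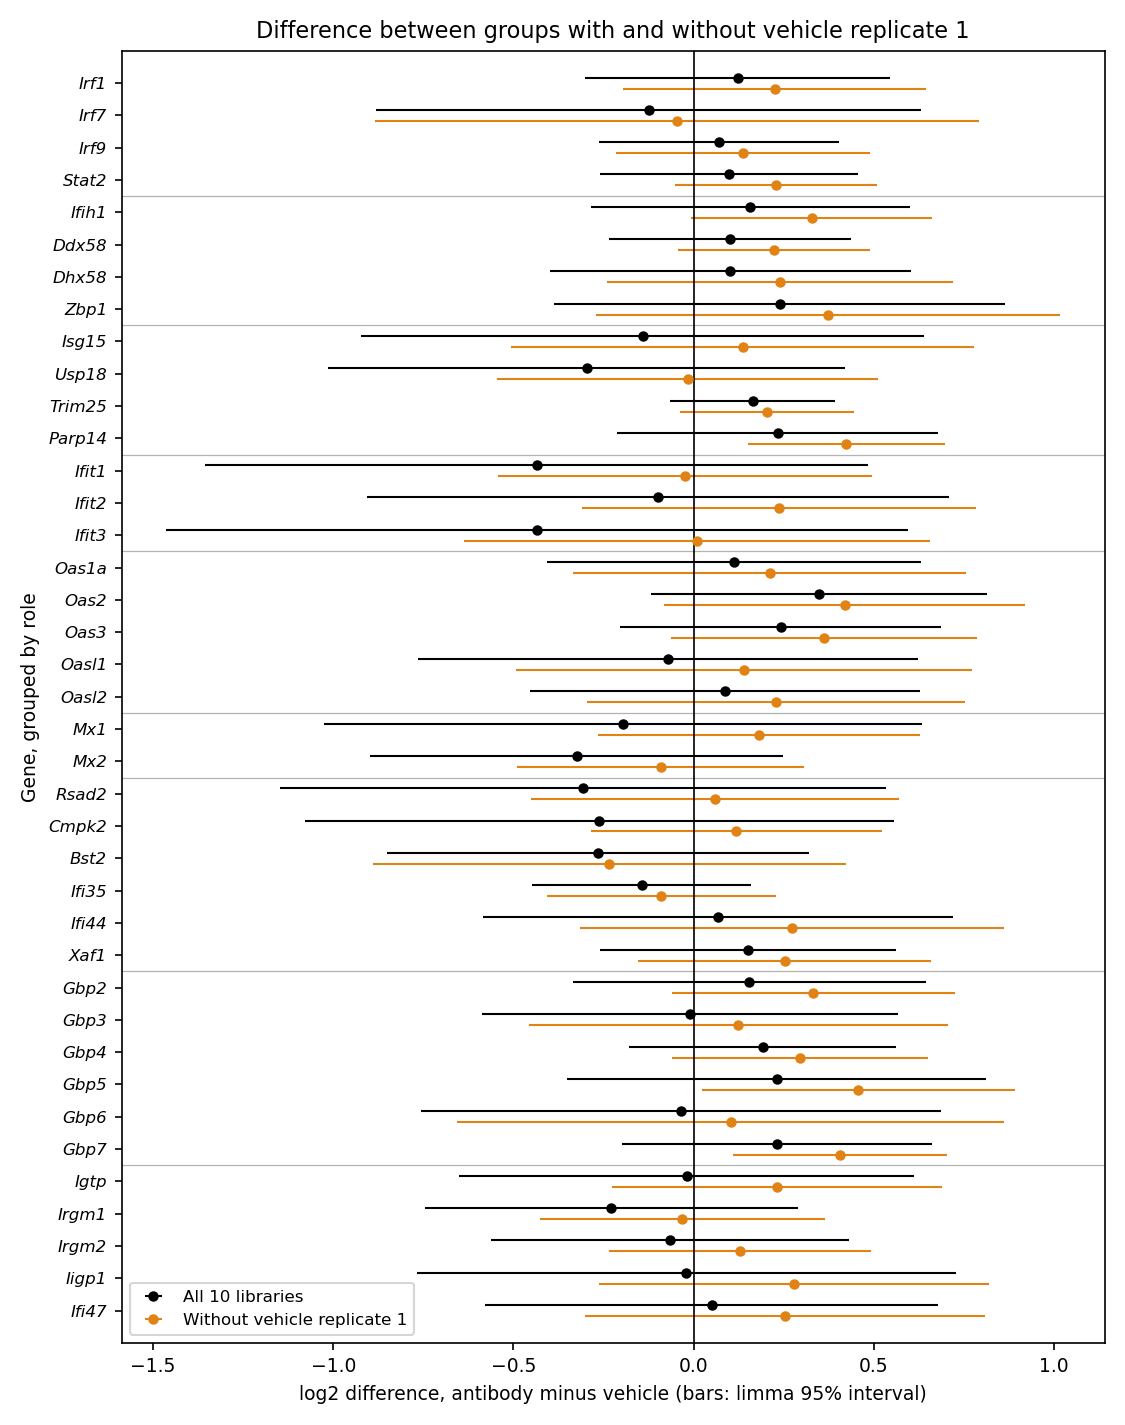
Points give the log2 difference, antibody minus vehicle, of each gene from limma with 95% intervals, over all 10 libraries (black) and without vehicle replicate 1 (orange). All 39 black intervals cross 0, and the orange points lie right of the black ones, with 3 orange intervals (Parp14, Gbp5 and Gbp7) clear of 0.

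Markers of blood and immune cells differed between the same libraries. Summed erythroid markers (3 genes) stood at 336 to 884 RPKM under antibody and 146 to 1168 RPKM under vehicle, with vehicle replicate 1 the highest of the 10 libraries and vehicle replicate 2 the lowest. Summed T and NK cell markers (11 genes) stood at 7.90 to 32.9 RPKM under antibody and 2.72 to 11.2 RPKM under vehicle, neutrophil markers (7 genes) at 53.2 to 359 RPKM and 23.1 to 139.6 RPKM, and B cell markers (4 genes) at 0.582 to 2.11 RPKM and 0.353 to 1.41 RPKM. Vehicle replicate 2 was the lowest of the 10 in each of these 3 sums. Vehicle replicate 1 ranked 5 of 10 from the top in T and NK cell markers, 8 in neutrophil markers and 3 in B cell markers. It ranked 5 in macrophage and monocyte markers (5 of 6 listed genes were in the table), a sum in which Lyz2 made up 1039 of its 1249 RPKM. The sum of 7 plasmacytoid dendritic cell markers, at 43.0 to 77.0 RPKM under antibody and 52.3 to 111 RPKM under vehicle, is no measure of those cells alone. Bst2, itself one of the 39 genes, made up 36.9 of its 63.8 RPKM in vehicle replicate 1. Cox6a2 made up 68.8 of its 111 RPKM in vehicle replicate 4, the library with the highest skeletal muscle marker sum. Siglech, a surface marker of these cells, stood at 0.495 to 1.26 RPKM under antibody and 0.234 to 1.63 RPKM under vehicle, with vehicle replicate 1 at 0.983 RPKM. Among the defining markers, Ly6g, Ncr1, Prf1 and Cd79a were each at 0 in 1 antibody library. In whole veins, fewer cells of a type and less RNA per cell cannot be told apart, and the part of cell content in the levels of the 39 genes was not tested.

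The transcription factors of the response had log2 differences of -0.12 to 0.12. Stat2, which with Irf9 is part of the type I complex, stood at 11.4, 11.99, 11.9, 14.9 and 13.3 RPKM in antibody veins, against 17.2, 8.66, 10.2, 12.5 and 11.8 RPKM in vehicle veins. Vehicle replicate 1 was highest and vehicle replicate 2 lowest, so that the vehicle group spanned the whole antibody group. The log2 difference was 0.10 (limma adjusted p = 0.893, SE 0.16) with all libraries and 0.23 (SE 0.12) without vehicle replicate 1. Irf9, the DNA-binding partner in that complex, stood at 7.99, 6.61, 7.15, 8.79 and 6.54 RPKM in antibody veins, against 8.56, 4.88, 8.52, 6.84 and 6.84 RPKM in vehicle veins. Its libraries differed little apart from the low vehicle replicate 2, and the log2 difference was 0.07 (limma adjusted p = 0.918, SE 0.15), and 0.14 (SE 0.16) without vehicle replicate 1. Irf1, a transcription factor induced by interferon gamma whose promoter stretch above holds a GAS match, stood at 9.48, 9.67, 11.4, 11.2 and 6.27 RPKM in antibody veins, against 11.7, 6.43, 7.26, 10.1 and 8.56 RPKM in vehicle veins. Antibody replicate 5 and vehicle replicate 2 were low, and the groups overlapped throughout, with means of 9.61 ± 2.06 RPKM under antibody and 8.80 ± 2.12 RPKM under vehicle (SD, n = 5 each). On the log2 scale the difference was 0.12 (limma adjusted p = 0.885, SE 0.19) and 0.23 (SE 0.19) without vehicle replicate 1. Irf7, which drives the production of type I interferon, stood at 19.5, 7.42, 16.9, 20.3 and 12.5 RPKM in antibody veins, against 19.9, 10.3, 18.01, 9.45 and 27.97 RPKM in vehicle veins. It was the most scattered of the 4, with vehicle replicate 5 highest and antibody replicate 2 lowest, and its log2 difference was -0.12 (limma adjusted p = 0.937, SE 0.34), and -0.05 (SE 0.37) without vehicle replicate 1.

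The nucleic acid sensors had somewhat higher means in antibody veins, with log2 differences of 0.10 to 0.24 in 4 of 4 genes and 0.22 to 0.37 without vehicle replicate 1. Ifih1, a helicase that senses viral RNA in the cytosol, stood at 5.10, 3.60, 4.64, 6.34 and 5.06 RPKM in antibody veins, against 7.26, 3.34, 3.997, 3.52 and 4.32 RPKM in vehicle veins. In this gene vehicle replicate 1 was the highest of all, whereas 4 antibody libraries lay above each of the other 4 vehicle libraries. The means were 4.95 ± 0.985 RPKM under antibody and 4.49 ± 1.60 RPKM under vehicle (SD, n = 5 each), and vehicle replicates 2 to 5 averaged 3.79 ± 0.447 RPKM (SD, n = 4). Antibody minus vehicle, the log2 difference was 0.16 (limma adjusted p = 0.860, SE 0.20) and 0.33 (SE 0.15) without vehicle replicate 1. Ddx58, the sensor of RNA ends, stood at 8.22, 8.11, 9.18, 10.4 and 8.58 RPKM in antibody veins, against 11.8, 6.44, 9.11, 7.62 and 7.06 RPKM in vehicle veins. Here too vehicle replicate 1 was highest, and the log2 difference was 0.10 (limma adjusted p = 0.881, SE 0.15), against 0.22 (SE 0.12) without that library. Zbp1, a sensor of unusual helical nucleic acids that can trigger cell death, stood at 6.40, 3.03, 7.49, 8.54 and 5.53 RPKM in antibody veins, against 7.37, 2.81, 6.07, 4.31 and 5.12 RPKM in vehicle veins. Antibody replicate 2 and vehicle replicate 2 were both low, and the log2 difference was 0.24 (limma adjusted p = 0.850, SE 0.28), and 0.37 (SE 0.29) without vehicle replicate 1. Dhx58, a regulator of the other helicase sensors, ranged from 3.04 to 6.66 RPKM under antibody and 3.32 to 7.18 RPKM under vehicle, with a log2 difference of 0.10 (limma adjusted p = 0.920, SE 0.23), 0.24 (SE 0.21) without vehicle replicate 1 and -0.0105 without vehicle replicate 2.

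Isg15 is a ubiquitin-like protein that is attached to others during the response, Usp18 removes it and damps the type I receptor, Trim25 is a ubiquitin ligase that acts on Ddx58, and Parp14 is an ADP-ribosyltransferase. Isg15 stood at 12.6, 8.82, 16.3, 20.4 and 12.3 RPKM in antibody veins, against 32.99, 8.003, 15.6, 9.77 and 18.4 RPKM in vehicle veins. Again vehicle replicate 1 was well above all others, and the remaining libraries of both groups were interleaved. Its log2 difference was -0.14 (limma adjusted p = 0.932, SE 0.35) with all libraries and 0.14 (SE 0.29) without vehicle replicate 1, a change of sign. Usp18 stood at 4.05, 4.83, 6.83, 8.49 and 7.38 RPKM in antibody veins, against 17.3, 5.32, 8.93, 4.76 and 6.37 RPKM in vehicle veins. Here vehicle replicate 1 was again the highest, and without it the vehicle mean was 6.34 ± 1.85 RPKM (SD, n = 4), beside 6.32 ± 1.84 RPKM in antibody veins (SD, n = 5). Over all libraries, the log2 difference was -0.30 (limma adjusted p = 0.836, SE 0.32) and -0.02 (SE 0.24) without it.

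Trim25 and Parp14 had other patterns. Trim25 stood at 20.5, 18.6, 18.99, 18.7 and 21.1 RPKM in antibody veins, against 19.6, 14.5, 18.1, 15.5 and 19.9 RPKM in vehicle veins. Of these 4 genes it varied least among libraries, 3 of 5 vehicle libraries lay below all antibody libraries, and vehicle replicate 1 lay within the range of the others. The means were 19.6 ± 1.15 RPKM under antibody and 17.5 ± 2.41 RPKM under vehicle (SD, n = 5 each). The log2 difference was 0.16 (limma adjusted p = 0.771, SE 0.10), with a 95% interval of 0.956-fold to 1.31-fold and an exact two-sided permutation p of 0.151. Its log2 difference was 0.20 (SE 0.11) without vehicle replicate 1. Parp14 stood at 12.5, 11.8, 15.02, 17.3 and 14.1 RPKM in antibody veins, against 20.6, 9.36, 10.2, 11.7 and 10.1 RPKM in vehicle veins. Vehicle replicates 2 to 5 all lay below the lowest antibody library, while vehicle replicate 1 lay above the highest. On the log2 scale the difference was 0.23 (limma adjusted p = 0.801, SE 0.20, exact two-sided permutation p = 0.302) with all libraries. Without vehicle replicate 1 it was 0.42 (SE 0.12), with a limma adjusted p of 0.684 and an exact two-sided permutation p of 0.0159. That permutation p was reached by leaving out the only vehicle library above any antibody library, so it is no separate support for a difference.

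The Ifit genes, whose proteins bind foreign RNA and block its translation, lie together on chromosome 19 (Ifit2 at 34550694 to 34576419, Ifit3 at 34583531 to 34588731 and Ifit1 at 34640871 to 34650009, mm10). Their median excess in vehicle replicate 1 was the largest of the roles. Ifit1 stood at 5.48, 5.40, 8.51, 10.5 and 10.05 RPKM in antibody veins, against 34.3, 6.86, 10.7, 6.42 and 7.86 RPKM in vehicle veins. The level in vehicle replicate 1 was 3.19 times that of the next highest library, and the other 9 were interleaved. Antibody minus vehicle, the log2 difference was -0.44 (limma adjusted p = 0.816, SE 0.42) with all libraries and -0.02 (SE 0.23) without vehicle replicate 1. Ifit2 stood at 5.67, 5.79, 6.10, 13.4 and 9.03 RPKM in antibody veins, against 21.4, 7.17, 7.18, 5.67 and 5.48 RPKM in vehicle veins. Vehicle replicate 1 was highest, followed by antibody replicates 4 and 5, and the other 7 lay close together. Over all libraries, the log2 difference was -0.10 (limma adjusted p = 0.955, SE 0.37) and 0.24 (SE 0.24) without vehicle replicate 1. Ifit3, whose promoter stretch above holds 2 ISRE matches, stood at 12.2, 8.58, 14.8, 21.8 and 16.3 RPKM in antibody veins, against 67.3, 12.9, 22.5, 9.71 and 13.4 RPKM in vehicle veins. In this gene vehicle replicate 1 was 2.99 times the next highest, and without it the group means were close, at 14.7 ± 4.94 RPKM in antibody veins (SD, n = 5) and 14.6 ± 5.50 RPKM (SD, n = 4) in vehicle veins. The log2 difference was -0.43 (limma adjusted p = 0.834, SE 0.47) and 0.01 (SE 0.29) without it. Reads of Ifit3 and of its near-identical copy Ifit3b, which was not analysed here, may not be told apart.

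The Oas genes encode oligoadenylate synthetases, which activate the RNA-cleaving enzyme RNase L, and related proteins. They lie on chromosome 5 (Oas2 at 120730333 to 120749853, Oas3 at 120753098 to 120777661 and Oas1a at 120896256 to 120907521, with Oasl2 and Oasl1 between 114896936 and 114937915). Oas2 stood at 6.83, 4.62, 5.64, 9.90 and 7.79 RPKM in antibody veins, against 6.46, 3.73, 4.16, 5.78 and 6.39 RPKM in vehicle veins. Antibody replicate 4 was highest and vehicle replicate 2 lowest, and vehicle replicate 1 did not stand out. The means were 6.95 ± 2.04 RPKM under antibody and 5.31 ± 1.28 RPKM under vehicle (SD, n = 5 each). The log2 difference of 0.35 (limma adjusted p = 0.771, SE 0.21) was the largest of the 39 upward, with a 95% interval of 0.921-fold to 1.76-fold and an exact two-sided permutation p of 0.167. Its log2 difference was 0.42 (SE 0.22) without vehicle replicate 1. Oas3 stood at 2.34, 1.32, 2.87, 2.68 and 2.33 RPKM in antibody veins, against 2.77, 1.39, 1.79, 1.36 and 2.07 RPKM in vehicle veins. Here 4 of 5 antibody libraries and vehicle replicate 1 lay above the other libraries, and the log2 difference was 0.24 (limma adjusted p = 0.798, SE 0.20), and 0.36 (SE 0.19) without vehicle replicate 1. Oas1a, which has closely similar neighbours, stood at 6.25, 4.53, 6.18, 9.41 and 6.34 RPKM in antibody veins, against 7.92, 3.34, 7.01, 5.11 and 7.16 RPKM in vehicle veins. The groups overlapped, with a log2 difference of 0.11 (limma adjusted p = 0.916, SE 0.23), and 0.21 (SE 0.24) without vehicle replicate 1. Oasl2, the member of the family with the highest mean, stood at 15.2, 10.3, 16.6, 18.6 and 14.7 RPKM in antibody veins, against 20.9, 8.07, 16.2, 11.2 and 16.8 RPKM in vehicle veins. Vehicle replicates 1 and 2 were the extremes, and the log2 difference was 0.09 (limma adjusted p = 0.938, SE 0.24), and 0.23 (SE 0.23) without vehicle replicate 1. Oasl1, which in mice represses the translation of Irf7, ranged from 2.01 to 3.97 RPKM under antibody and 1.55 to 5.69 RPKM under vehicle, with a log2 difference of -0.07 (limma adjusted p = 0.966, SE 0.31), but 0.14 (SE 0.28) without vehicle replicate 1, a change of sign.

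Mx proteins are dynamin-like GTPases that trap viral components, and both genes lie on chromosome 16 (Mx1 at 97447035 to 97462907 and Mx2 at 97535308 to 97560900). Many laboratory strains, C57BL/6 among them, carry defective Mx alleles, and the deposited table lists Mx2 as a polymorphic pseudogene, so the values are transcript levels only. Mx1 stood at 2.47, 2.91, 4.12, 4.98 and 4.39 RPKM in antibody veins, against 13.1, 3.05, 4.13, 3.004 and 2.63 RPKM in vehicle veins. Again vehicle replicate 1 was 2.64 times the next highest, and the antibody and remaining vehicle libraries overlapped. On the log2 scale the difference was -0.20 (limma adjusted p = 0.908, SE 0.38) with all libraries and 0.18 (SE 0.20) without vehicle replicate 1. Mx2 stood at 1.42, 1.55, 2.11, 2.27 and 2.56 RPKM in antibody veins, against 5.35, 1.80, 2.91, 1.77 and 2.07 RPKM in vehicle veins. The same library was highest, and the log2 difference was -0.32 (limma adjusted p = 0.793, SE 0.26) and -0.09 (SE 0.18) without it.

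**Figure D4:**
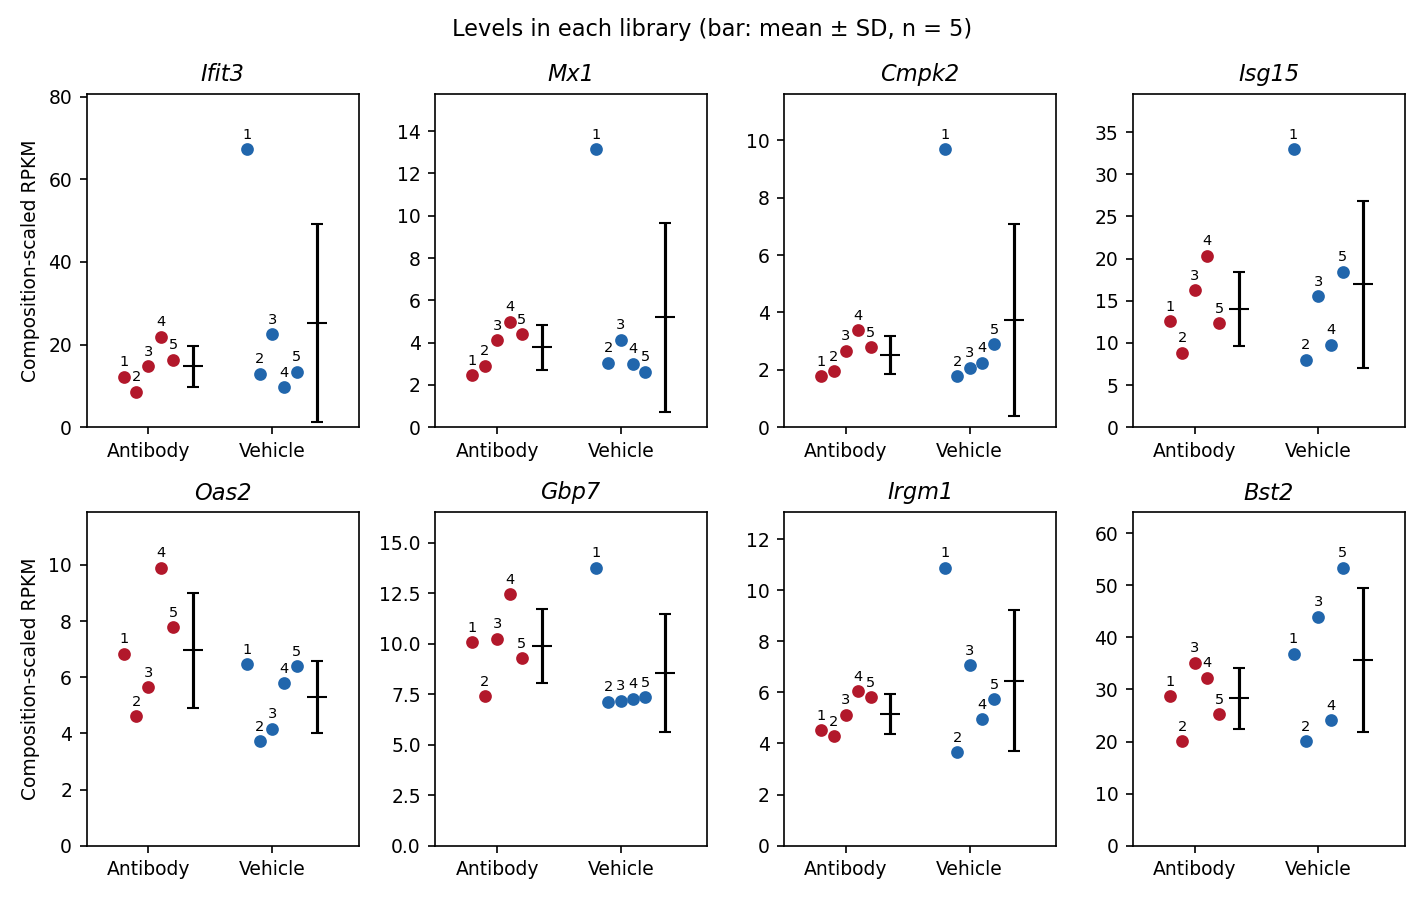
Each panel gives composition-scaled RPKM of a gene on a linear axis from 0, with antibody left of vehicle, points numbered by replicate and bars for the mean ± SD (n = 5). Vehicle replicate 1 lies far above the other points in Ifit3, Mx1, Cmpk2 and Isg15 and highest in Gbp7 and Irgm1, but within the others in Oas2 and Bst2.

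Rsad2, the antiviral enzyme viperin, and Cmpk2, a mitochondrial nucleotide kinase, are neighbours on chromosome 12 (Rsad2 at 26442753 to 26456452 and Cmpk2 at 26469204 to 26479835) and had the same pattern over libraries. Rsad2 stood at 4.82, 3.68, 5.07, 7.69 and 6.55 RPKM in antibody veins, against 19.7, 3.57, 4.72, 5.92 and 7.01 RPKM in vehicle veins. Cmpk2 stood at 1.77, 1.95, 2.66, 3.38 and 2.79 RPKM in antibody veins, against 9.70, 1.78, 2.07, 2.25 and 2.90 RPKM in vehicle veins. In both, vehicle replicate 1 was more than 2 times the next highest library and the other 9 overlapped between the groups. The log2 difference of Rsad2 was -0.31 (limma adjusted p = 0.856, SE 0.38) and 0.06 (SE 0.23) without vehicle replicate 1. That of Cmpk2 was -0.26 (limma adjusted p = 0.871, SE 0.37) and 0.12 (SE 0.18) without it, and both genes changed sign.

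Among the remaining effectors Ifi44 was highest in vehicle replicate 1, and Bst2, Ifi35 and Xaf1 were not. Bst2 stood at 28.7, 20.1, 35.1, 32.2 and 25.2 RPKM in antibody veins, against 36.9, 20.1, 43.98, 24.1 and 53.4 RPKM in vehicle veins. Vehicle replicate 5 was highest and vehicle replicate 3 next, and antibody replicate 2 and vehicle replicate 2 were lowest. The means were 28.3 ± 5.91 RPKM under antibody and 35.7 ± 13.8 RPKM under vehicle (SD, n = 5 each), with a log2 difference of -0.27 (limma adjusted p = 0.820, SE 0.26) and -0.23 (SE 0.29) without vehicle replicate 1. Ifi35, a partner of the STAT-interacting protein Nmi, stood at 7.87, 9.002, 9.20, 10.5 and 9.27 RPKM in antibody veins, against 11.9, 7.28, 10.6, 9.64 and 12.02 RPKM in vehicle veins. Vehicle replicates 1 and 5 were highest and vehicle replicate 2 lowest, and the log2 difference was -0.14 (limma adjusted p = 0.816, SE 0.14), and -0.09 (SE 0.14) without vehicle replicate 1. Up to 290 exon bases of Ifi35 are shared with Gm11626. Xaf1, an antagonist of the apoptosis inhibitor XIAP, stood at 2.90, 2.67, 3.92, 4.42 and 3.08 RPKM in antibody veins, against 4.11, 1.88, 3.29, 2.70 and 3.24 RPKM in vehicle veins. Antibody replicate 4 was highest and vehicle replicate 2 lowest, with a log2 difference of 0.15 (limma adjusted p = 0.856, SE 0.19), and 0.25 (SE 0.18) without vehicle replicate 1. Ifi44, the lowest of the 39, ranged from 0.659 to 1.79 RPKM under antibody and 0.488 to 2.38 RPKM under vehicle, with a log2 difference of 0.07 (limma adjusted p = 0.965, SE 0.30), and 0.27 (SE 0.26) without vehicle replicate 1.

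The guanylate-binding proteins, GTPases that coat and disrupt the compartments of intracellular pathogens, had means higher in antibody veins in 4 of 6 genes with all libraries and in 6 of 6 without vehicle replicate 1. Under scaling by library totals only, 6 of 6 were higher with all libraries, Gbp3 by 0.0735 and Gbp6 by 0.0313 on the log2 scale. Vehicle replicate 2 was the lowest library in 6 of 6. Gbp2, Gbp3, Gbp5 and Gbp7 lie on chromosome 3 and Gbp4 and Gbp6 on chromosome 5. Gbp7 (chromosome 3, 142530338 to 142550083), whose promoter stretch above holds both elements, stood at 10.1, 7.41, 10.2, 12.5 and 9.27 RPKM in antibody veins, against 13.8, 7.13, 7.17, 7.28 and 7.36 RPKM in vehicle veins. Vehicle replicates 2 to 5 lay within a narrow band below all antibody libraries, and vehicle replicate 1 lay above them all. The antibody mean was 9.90 ± 1.83 RPKM (SD, n = 5), and vehicle replicates 2 to 5 averaged 7.23 ± 0.102 RPKM (SD, n = 4). Antibody minus vehicle, the log2 difference was 0.23 (limma adjusted p = 0.801, SE 0.19, exact two-sided permutation p = 0.333) with all libraries. Without vehicle replicate 1 it was 0.41 (SE 0.13), with a limma adjusted p of 0.684 and an exact two-sided permutation p of 0.0159. As in Parp14, that permutation p was reached by leaving out the only vehicle library above any antibody library. In GENCODE M21, up to 637 exon bases of Gbp7 are shared with Gm43802. Gbp4 stood at 4.41, 4.32, 4.64, 5.24 and 3.39 RPKM in antibody veins, against 5.20, 2.46, 4.06, 3.80 and 3.71 RPKM in vehicle veins. Vehicle replicate 2 was low, antibody replicate 4 was highest, and the log2 difference was 0.19 (limma adjusted p = 0.804, SE 0.17) and 0.30 (SE 0.16) without vehicle replicate 1. Gbp2, the most abundant of the family, stood at 18.4, 12.3, 20.2, 21.98 and 15.2 RPKM in antibody veins, against 25.7, 11.2, 15.8, 13.5 and 14.2 RPKM in vehicle veins. The highest library was vehicle replicate 1 and the lowest vehicle replicate 2, with a log2 difference of 0.16 (limma adjusted p = 0.872, SE 0.22) and 0.33 (SE 0.18) without vehicle replicate 1.

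The row named Gbp5 stood at 3.19, 1.81, 3.22, 2.72 and 2.11 RPKM in antibody veins, against 4.40, 1.26, 2.35, 1.95 and 1.49 RPKM in vehicle veins. The extremes were again vehicle replicates 1 and 2, and the log2 difference was 0.23 (limma adjusted p = 0.844, SE 0.26) and 0.46 (SE 0.19) without vehicle replicate 1. In the GENCODE M21 annotation the ID of this row carries the name Gbp2b, and its span in the table (chromosome 3, 142496934 to 142619179) covers the rows of Gbp7 and Gbp3, so reads of these rows may not be told apart. Gbp3 ranged from 9.94 to 20.4 RPKM under antibody and 8.62 to 21.5 RPKM under vehicle, with a log2 difference of -0.01 (limma adjusted p = 0.994, SE 0.26), but 0.12 (SE 0.26) without vehicle replicate 1, a change of sign. The row named Gbp6, whose ID carries the name Gm43302 in GENCODE M21 and shares 1792 exon bases with Gbp10, ranged from 1.21 to 4.25 RPKM under antibody and 0.903 to 3.27 RPKM under vehicle. Its log2 difference was -0.04 (limma adjusted p = 0.983, SE 0.33), but 0.10 (SE 0.34) without vehicle replicate 1, a change of sign.

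Immunity-related GTPases act at the same pathogen compartments, with Irgm1, Irgm2 and Igtp as regulators and Iigp1 as an effector. Irgm1 (chromosome 11, 48861968 to 48871683) stood at 4.52, 4.28, 5.13, 6.04 and 5.80 RPKM in antibody veins, against 10.9, 3.67, 7.07, 4.96 and 5.74 RPKM in vehicle veins. Again the top library was vehicle replicate 1 and the bottom vehicle replicate 2, with the antibody libraries between them, and the log2 difference was -0.23 (limma adjusted p = 0.827, SE 0.23) and -0.03 (SE 0.18) without vehicle replicate 1. Irgm2 stood at 8.84, 7.14, 9.21, 11.3 and 10.8 RPKM in antibody veins, against 17.2, 6.38, 9.39, 8.70 and 9.99 RPKM in vehicle veins. Again the extremes were both vehicle libraries, and the log2 difference was -0.07 (limma adjusted p = 0.952, SE 0.22), but 0.13 (SE 0.16) without vehicle replicate 1, a change of sign. Ifi47, a GTPase of the same family, stood at 4.90, 2.90, 3.87, 5.84 and 4.33 RPKM in antibody veins, against 7.64, 2.19, 4.80, 2.87 and 4.77 RPKM in vehicle veins. Its groups overlapped in the same way, with a log2 difference of 0.05 (limma adjusted p = 0.974, SE 0.28), and 0.25 (SE 0.25) without vehicle replicate 1. Iigp1, the most abundant of the 5 genes, stood at 11.9, 7.23, 10.6, 13.5 and 11.9 RPKM in antibody veins, against 25.8, 5.67, 12.6, 7.78 and 10.8 RPKM in vehicle veins. Here vehicle replicate 1 was 1.91 times the next highest library, and the log2 difference was -0.02 (limma adjusted p = 0.989, SE 0.34) and 0.28 (SE 0.24) without it. Igtp, which overlaps Irgm2 by 162 exon bases on the same strand, ranged from 4.75 to 9.24 RPKM under antibody and 4.83 to 15.1 RPKM under vehicle, with a log2 difference of -0.02 (limma adjusted p = 0.989, SE 0.29), but 0.23 (SE 0.20) without vehicle replicate 1, a change of sign.

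Set side by side, the type I families (10 Ifit, Oas and Mx genes) and the gamma families (9 Gbp, Irgm and Igtp genes) had median log2 differences of -0.08 and -0.0092, where the median over all genes tested was -0.0053. Under scaling by library totals only these were -0.0096 and 0.07, and by limma-voom 0.0095 and 0.08, so the sign of each depends on the setting. Without vehicle replicate 1 the medians were 0.20 and 0.23, and without vehicle replicate 2 they were -0.17 and -0.15. Summed levels of the type I families were 59.8, 47.1, 69.8, 97.5 and 76.8 RPKM in antibody veins, against 185, 50.3, 79.1, 51.5 and 68.6 RPKM in vehicle veins. Those of the gamma families were 72.5, 53.1, 79.2, 93.7 and 69.5 RPKM in antibody veins, against 117, 46.6, 71.7, 59.1 and 71.2 RPKM in vehicle veins. Both sums were highest in vehicle replicate 1, then in antibody replicate 4, while antibody replicate 2 and vehicle replicate 2 were low in both. The type I sum divided by the gamma sum was 0.826, 0.886, 0.881, 1.04 and 1.10 in antibody veins, against 1.58, 1.08, 1.10, 0.873 and 0.964 in vehicle veins. Vehicle replicate 1 was the highest in this ratio, and the other 9 libraries, of both groups, lay between 0.826 and 1.10. In that library Ifit1, Ifit2 and Ifit3 made up 34.3, 21.4 and 67.3 RPKM of the type I sum of 185 RPKM. Relative to the other vehicle libraries, the median ratio of vehicle replicate 1 was 2.67 over the type I families and 1.91 over the gamma families. The type I families were not alike, with medians of 4.66 in the Ifit, 3.55 in the Mx and 1.53 in the Oas genes, the last below the gamma families. The ratio was at least 2 in 6 of the 10 type I genes and 3 of the 9 gamma genes, and the difference between the families was not tested.

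**Figure D5:**
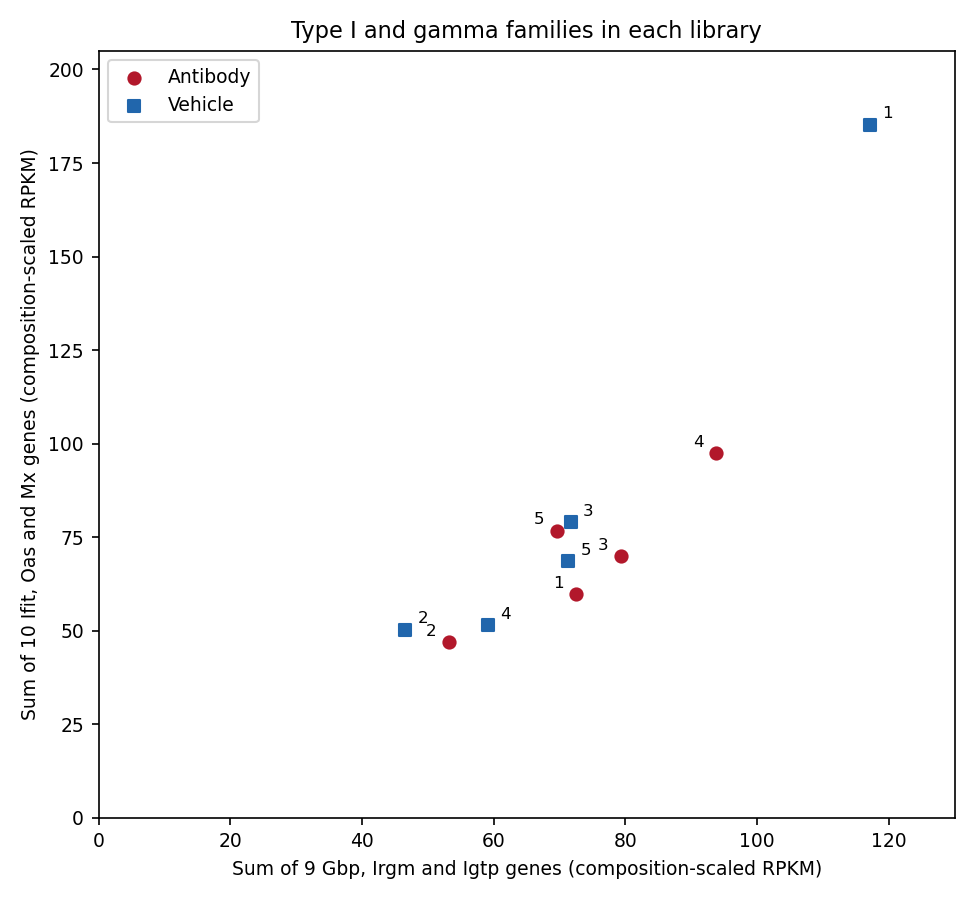
Each point is a library, placed by the summed RPKM of the 9 gamma family genes (x axis) and of the 10 type I family genes (y axis), with antibody as circles, vehicle as squares and replicate numbers beside them. Vehicle replicate 1 stands alone at 117 and 185 RPKM, and antibody and the other vehicle libraries are intermixed.

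Interferons themselves were barely read. Of 10 ligand genes, 0 passed the filter: Ifnb1, a type I interferon, had 0 to 4 reads per library and Ifng, interferon gamma, had 1 to 7, so differences in the ligands were not detectable at this depth. The receptor genes were all tested (6 of 6), with 3 higher and 3 lower in antibody veins, 0 called by limma and 0 at an unadjusted p below 0.05, where 48.8% of all genes tested were higher, 0% were called and 6.53% had such a p. Ifngr1 stood at 45.0 ± 9.26 RPKM under antibody and 38.6 ± 2.96 RPKM under vehicle (SD, n = 5 each), and Ifnar1 at 17.4 ± 2.88 RPKM and 14.9 ± 1.68 RPKM. Neither receptor was highest in vehicle replicate 1.

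Of 9 transducers and feedback genes, 8 had higher means in antibody veins and 1 lower, with a median log2 difference of 0.26 (0.24 without vehicle replicate 1). In the limma fit 0 were called, and Jak2 (log2 difference 0.47) and Ptpn2, a phosphatase that damps JAK kinases (0.28), had an unadjusted p below 0.05, against 6.53% of all genes tested. Without vehicle replicate 1 neither Jak2 (0.42) nor Ptpn2 (0.24) did, and 1 of the 9 did, against 6.89% of all genes tested. Jak2 ranged from 15.5 to 30.7 RPKM under antibody and 12.9 to 19.5 RPKM under vehicle. Among 13 genes that act in the induction of interferon, 7 were higher and 6 lower, 0 were called, and 3 had an unadjusted p below 0.05: Ikbke (log2 difference 0.27), Mb21d1, the DNA sensor cGAS (0.44), and Ticam1, an adaptor of Toll-like receptors (-0.21). Over all genes tested 0% were called and 6.53% had such a p. When vehicle replicate 1 was left out there were 2, Ikbke (0.27) and Mb21d1 (0.51), while Ticam1 stood at -0.20.

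Of 64 other interferon-induced genes listed, 59 were in the table and 57 were tested, and Ifi207, Ifit1bl1, Ifit3b, Gbp10 and Gbp2b were not analysed here. In antibody veins 36 were higher and 21 lower, with a median log2 difference of 0.06 (0.15 without vehicle replicate 1), and 0 were called by limma. At an unadjusted p below 0.05 there were 4: Nlrc5, which activates MHC class I genes (log2 difference 0.48), Ifitm1, a membrane protein that blocks viral entry (1.41), Trim30a (0.43) and Apol9a (-0.66), a share close to the 6.53% of all genes tested. With vehicle replicate 1 left out there were 11, against 6.89% of all genes tested, with 10 higher and Apol9a lower, and Ifitm1 (1.28) was not among them. Ifitm1 stood at 18.8, 14.3, 20.5, 4.71 and 4.22 RPKM in antibody veins, against 2.34, 3.06, 5.88, 7.94 and 1.53 RPKM in vehicle veins. The 7 neutrophil markers summed in the same libraries to 245, 238, 359, 54.9 and 53.2 RPKM in antibody veins, against 46.4, 23.1, 98.6, 139.6 and 44.5 RPKM in vehicle veins. Both were highest in antibody replicates 1 to 3 and, among vehicle libraries, in replicate 4, and the part of neutrophil content in the Ifitm1 difference was not tested. As with the 39 genes, vehicle replicate 1 was often the highest of the 10 libraries, in 19 of the 57. Cxcl10, a chemokine that draws T cells and a classical interferon target, stood at 13.5 RPKM in vehicle replicate 1 and at 0.807 to 2.74 RPKM in the other 9 libraries.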

How the data were processed

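RNA was measured in 10 libraries of fistula outflow vein, 5 antibody and 5 vehicle, grouped by their titles and descriptions. Per the labels' protocols, 0.5 µg of total RNA entered the TruSeq V2 kit, and the submitters' processing notes name mm10. For the aligner, the counter, strand and annotation release nothing was given in the sources used here, so reads of overlapping, antisense or near-identical genes cannot be told apart. The authors deposited 43346 genes as RPKM, per the file headers, with gene lengths and averages. The RPKM values correspond to whole reads: 100% of them gave whole numbers within 0.001, and depth was therefore known. Since the deposited unit is RPKM, limma on log2 RPKM was the main test. Limma-voom on the recovered reads was an alternative, and no other model of reads was fitted. RPKM was scaled by trimmed means of M values. Genes were kept when 5 libraries reached 0.513 CPM and 15 reads were found in all, which left 17859. Groups were compared by limma 3.58.1 (R 4.3.3), trended variance, on log2(RPKM + 0.5), with group only, two-sided, and with Benjamini-Hochberg adjustment over all genes kept and a threshold of 0.05. Differences are on the log2(RPKM + 0.5) scale, which understates those of low genes. Single genes also had an exact permutation test over 252 assignments of 5 against 5, whose smallest p is 0.00794. Alternatives were other scalings, pseudocounts and filters, limma-voom, the replicate number as a block and each library left out.

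The 39 genes, their roles, the families and the pathway and marker lists were chosen with earlier results of these data known. Values per library are given for the 3 genes of each role with the smallest unadjusted p and the gene of highest mean, and for Isg15, Rsad2 and Cmpk2, which were added after their values were seen. Table IDs were compared with GENCODE M21: 37 of 39 carried the same name, 27 the same span, and 15 shared exon bases with another gene. Promoter sequences are from RefSeq (GRCm38.p6). Dhx58, Usp18, Mx1, Gbp6, Oas2, Parp14, Iigp1, Gbp4, Zbp1 and Mx2 were not matched to them by symbol.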

Additional observations from a re-analysis of the deposited data

Results flagged for a closer look

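In 9 of 78 groups examined (39 genes in each of 2 groups of 5 libraries), a single library lay far from the other 4. The gap to its nearest neighbour exceeded 0.71 of the group's whole range, a limit set for about 1 in 20 independent groups. The 39 genes were read in the same libraries, so the 78 groups are not independent and 9 of 78 cannot be set against that share. The library was vehicle replicate 1, and it lay above the others, in 9 of the 9. The level of Ifit1 was 34.3 RPKM there, against 6.42 to 10.7 RPKM in the other vehicle libraries. Ifit2 stood at 21.4 RPKM, against 5.48 to 7.18 RPKM. Ifit3 stood at 67.3 RPKM, against 9.71 to 22.5 RPKM. The next 3 were the virus-trapping GTPase Mx1 at 13.1 RPKM, against 2.63 to 4.13 RPKM, Rsad2 at 19.7 RPKM, against 3.57 to 7.01 RPKM, and Cmpk2 at 9.70 RPKM, against 1.78 to 2.90 RPKM. The RNA sensor Ifih1 stood at 7.26 RPKM, against 3.34 to 4.32 RPKM, and Parp14 at 20.6 RPKM, against 9.36 to 11.7 RPKM. Gbp7 stood at 13.8 RPKM, against 7.13 to 7.36 RPKM, and was the only gamma family gene among the 9. Over all 17859 genes tested, the same library stood apart upward in 227 (1.27%). This library also had a read in more genes at equal depth than any other and the highest erythroid marker sum. The part of either in these levels was not tested.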

How the results depend on the processing

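Under 18 alternatives, 0 of the 39 genes were called in any, and 19 of the 39 kept the sign of their difference in all. Over the whole table, 0 genes were called in 17 alternatives and 1 without the filter on low values, where 39673 genes were tested. The smallest adjusted p over the table otherwise fell furthest without antibody replicate 5 (0.104), and genes at an unadjusted p below 0.05 numbered 779 to 1500 with a library left out. The median log2 difference of the 39 then ran from -0.14 to 0.22. Scaling by library totals only changed the sign of Oasl1 (0.0018), Gbp3 (0.0735), Gbp6 (0.0313), Igtp (0.0598), Irgm2 (0.0152) and Iigp1 (0.0612), and limma-voom that of Oasl1 (0.10) and Gbp6 (0.0764), each below 0 as reported. Leaving out single libraries changed the sign of 20 genes, whose log2 differences then ranged as follows, for causes that were not tested. Those lower in antibody veins with all libraries were Oasl1 (-0.26 to 0.14), Gbp3 (-0.19 to 0.12), Gbp6 (-0.27 to 0.10), Igtp (-0.16 to 0.23), Irgm2 (-0.21 to 0.13), Iigp1 (-0.24 to 0.28), Irf7 (-0.30 to 0.10), Isg15 (-0.36 to 0.14), Ifit2 (-0.30 to 0.24), Ifit3 (-0.67 to 0.0105), Mx1 (-0.35 to 0.18), Rsad2 (-0.52 to 0.0597) and Cmpk2 (-0.42 to 0.12). Those higher were Oas1a (-0.0711 to 0.22), Ifi44 (-0.11 to 0.27), Ifi47 (-0.14 to 0.25), Irf9 (-0.0491 to 0.14), Stat2 (-0.0075 to 0.23), Dhx58 (-0.0105 to 0.27) and Oasl2 (-0.10 to 0.23). For Ifit2, Ifit3, Mx1, Rsad2 and Cmpk2 the library was vehicle replicate 1 alone, and for Irf9, Stat2, Dhx58 and Oasl2 it was vehicle replicate 2 alone. With the replicate number as a block, 0 genes were called (smallest adjusted p 0.683), 1252 had an unadjusted p below 0.05 and 1 of the 39 did. The numbers do not show a pairing: same-numbered libraries correlated between -0.10 and 0.35 in their deviations from the group means, over 0.1 in 2 of 5, and 3 of 10 libraries correlated best with their own number. The interferon ligands had few or no reads, so differences in them were not detectable at this depth, and 5 libraries per group limit the detection of differences smaller than the spread between libraries.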
